A study of Mus musculus with 24 samples.

Results

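The genes described here encode the SNAREs of membrane fusion with the proteins that take SNARE complexes apart and the proteins that bind syntaxins. They were taken from the gene table by symbol and not by their values, though earlier results of these data were known when they were chosen. The symbols were those of syntaxins (Stx), vesicle-associated membrane proteins (Vamp), Snap23, Snap25, Snap29 and Snap47, Vti1a and Vti1b, Bet1 and Bet1l, Gosr1 and Gosr2, Ykt6, Use1, Nsf and its adaptors Napa, Napb and Napg, and syntaxin-binding proteins (Stxbp). The rule found 43 of 24091 genes, of which 41 had enough reads to be tested, among 13520 genes tested in all. Vamp7 was not analysed here, as the rule found no gene of that symbol.

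Bulk RNA-seq was made from sorted Lin-Sca-1+c-Kit+ cells (LSKs), the marrow fraction that holds hematopoietic stem and early progenitor cells, from mice on the B6 background. There were 4 groups of 6 libraries, with 3 females and 3 males in each, whereas the study's methods give n = 5 per group. WT mice were miR-142+/+ and miR-142 KO mice were miR-142-/-, a deletion present in every cell from the germline. CP CML mice were miR-142+/+ BCR-ABL, a model of chronic phase chronic myeloid leukemia, and BC CML mice were miR-142-/- BCR-ABL, the study's model of blast crisis. In both CML groups BCR-ABL was driven by a tetracycline-repressed transactivator under the SCL promoter, and LSKs were taken 2 weeks after tetracycline was withdrawn. Ages were not given in the labels, and library identifiers in the labels were read as separate mice. If they were not, the p-values measure only the spread between these libraries.

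SNAREs are short membrane-anchored proteins that pull a vesicle and its target membrane together. A Qa, a Qb and a Qc helix on one side zip up with an R helix on the other, and proteins of the SNAP family supply the Qb and Qc helices together. After fusion the ATPase NSF, held by SNAP adaptors (Napa, Napb, Napg), pulls the spent complex apart, and Sec1/Munc18 proteins (such as Stxbp2 and Stxbp3) clasp syntaxins and guide assembly. In blood cells these genes are best known for granule release, where loss of STX11 or STXBP2 in humans impairs killing by lymphocytes.

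The deleted gene makes a pair of mature microRNAs, and a microRNA lowers transcripts that carry a match to its seed. The mature sequences are shown because SNARE genes are grouped by matches to them below. They are RefSeq entries on GRCm38.p6, written 5′ to 3′ with the seed (bases 2 to 8) in capitals, and lie on the plus strand at chr11:87756903-87756925 and chr11:87756867-87756887.
miR-142a-3p: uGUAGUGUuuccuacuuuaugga
miR-142a-5p: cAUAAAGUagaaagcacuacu

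A match to the seed of miR-142a-3p reads ACACTAC in the transcript, and a match to that of miR-142a-5p reads ACTTTAT. The longest annotated 3′ UTR of each gene (GENCODE M21, GRCm38, the build the authors mapped to as mm10) was searched on the transcript strand, for 43 of 43 members and 93.25% of all tested genes. The miR-142a-3p match was present in 8 of 41 tested members (19.5%) and in 6.92% of all 12607 tested genes with a UTR. The median UTR was longer in the members, at 1918 bases against 1166 bases, and the shares were not matched for length. The members with a match were Nsf, Snap23, Stx12, Stx17, Stx6, Vamp1, Vamp3 and Vamp5, and the untested Stx19 had one as well. Stretches from the UTRs of the 4 members that were higher in both comparisons of miR-142 loss are shown, with the match in capitals. The matches lie at chr4:132855142-132855148 (minus strand) for Stx12, chr4:151048602-151048608 (minus strand) for Vamp3, chr2:120600700-120600706 (plus strand) for Snap23 and chr11:103822407-103822413 (minus strand) for Nsf.
Stx12: attctttttgacaggtgACACTACa
Vamp3: tggaccttccaagaagaACACTACt
Snap23: gtcatttgtacttaaatACACTACt
Nsf: tgcagcacataaataaaACACTACt

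A match is a description of the sequence and not a shown site of binding, and whether these LSKs used the longest UTR was not tested. The miR-142a-5p match was present in 6 of 41 members (14.6%) against 15.8% of all genes. Those members were Gosr1 and Stx3 with 2 matches each, and Gosr2, Napb, Stx11 and Stxbp4 with 1 each.

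Total counts ran from 16267965 to 24687077 per library. The host gene Mir142 had 94 to 127 counts per WT library and 68 to 153 per CP CML library, whereas all 12 libraries of miR-142-/- mice had 0, which matches the labels. The library miR-142 KO 3 stood apart from its group along the first principal component, at 13.85 where the other libraries of its group ran from -15.06 to -3.62. Libraries of a group differed by more than sampling noise, with a chi-square per degree of freedom of 5.95 to 64.5 over 60 pairs, so none was a duplicate. Genes of the LSK gate (Kit, Ly6a) and other stem and progenitor markers outside the gate (Cd34, Flt3, Slamf1) were detected in every library. Their summed level was 2100 to 3530 CPM (counts scaled to a common library size), which Kit, Cd34 and Flt3 carried. Of the 5, 3 were lower and 1 higher in BC CML against CP CML LSKs, and mean Flt3 was 870 and 695 CPM with miR-142 (WT, CP CML) against 370 and 297 CPM without it (miR-142 KO, BC CML). The mean of Slamf1 was 3.13 to 8.18 CPM and that of Ly6a 41.7 to 110 CPM over the groups. Markers of other cells moved with the groups. The summed level of 6 mast cell or basophil markers ranged per library, for WT, then miR-142 KO, then CP CML, then BC CML LSKs, from 86.9 to 600, 282 to 2720, 1190 to 2220 and 3240 to 6990 CPM. Cpa3 carried most of it in the CML groups, with means of 78.9, 308, 1130 and 4100 CPM in the same order. Mcpt8 and Prss34 were instead highest in miR-142 KO LSKs, at means of 301 and 449 CPM, against 164 and 183 CPM in BC CML LSKs. For 4 neutrophil-primed markers the ranges of the sum were 1230 to 4750, 2580 to 7320, 4290 to 7330 and 5580 to 8110 CPM. For 7 of the 8 B lineage and plasma markers they were 70 to 981, 27.5 to 41.9, 173 to 793 and 27.9 to 39.7 CPM. Jchain carried most of the latter in WT and CP CML LSKs, with means of 423, 3, 333 and 5.05 CPM over the 4 groups. The mean of Cd79b was 28.8, 26.4, 27.1 and 27.7 CPM. For 4 of the 6 erythroid markers the ranges of the sum were 46.9 to 103, 4.11 to 121, 8.91 to 34.1 and 2.03 to 5.7 CPM. In miR-142 KO against WT LSKs, 5 of 6 megakaryocyte and platelet markers were higher, with a summed level of 145 to 237 CPM in WT and 198 to 583 CPM in miR-142 KO libraries. There 5 of 8 mature neutrophil markers were higher as well (7.13 to 60.3 against 19.3 to 188 CPM), and 4 of 6 macrophage markers were lower (35.5 to 768 against 9.42 to 79.6 CPM). Of 6 monocyte or dendritic markers, 3 were lower in BC CML against CP CML LSKs and 1 in miR-142 KO against WT LSKs. No listed marker was at 0 in every library. The part of these shifts in the results below was not tested, and in bulk samples fewer cells of a type cannot be told apart from less RNA per cell.

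Levels are given as CPM scaled by TMM, and between genes only per kilobase of the gene length in the deposited table. Vamp8, the R-SNARE of endosomes and secretory granules, had the highest level per kilobase of the 43 members, with a mean over 24 libraries of 145.9 CPM per kb. Next came Vamp3 of recycling endosomes at 66.7, Stxbp2 (Munc18-2) at 61.0, Stx4a of the plasma membrane at 51.0 and Stx16 of the Golgi at 38.1 CPM per kb. The SNARE Use1 of retrograde traffic to the ER, Gosr2 of the Golgi, Vamp2 and Ykt6 followed at 35.8 to 37.7 CPM per kb. Vti1b, Napa, Snap23, Stx5a, Stx7, Stx12 and Bet1 lay between 21.3 and 34.4 CPM per kb.

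**Figure D1:**
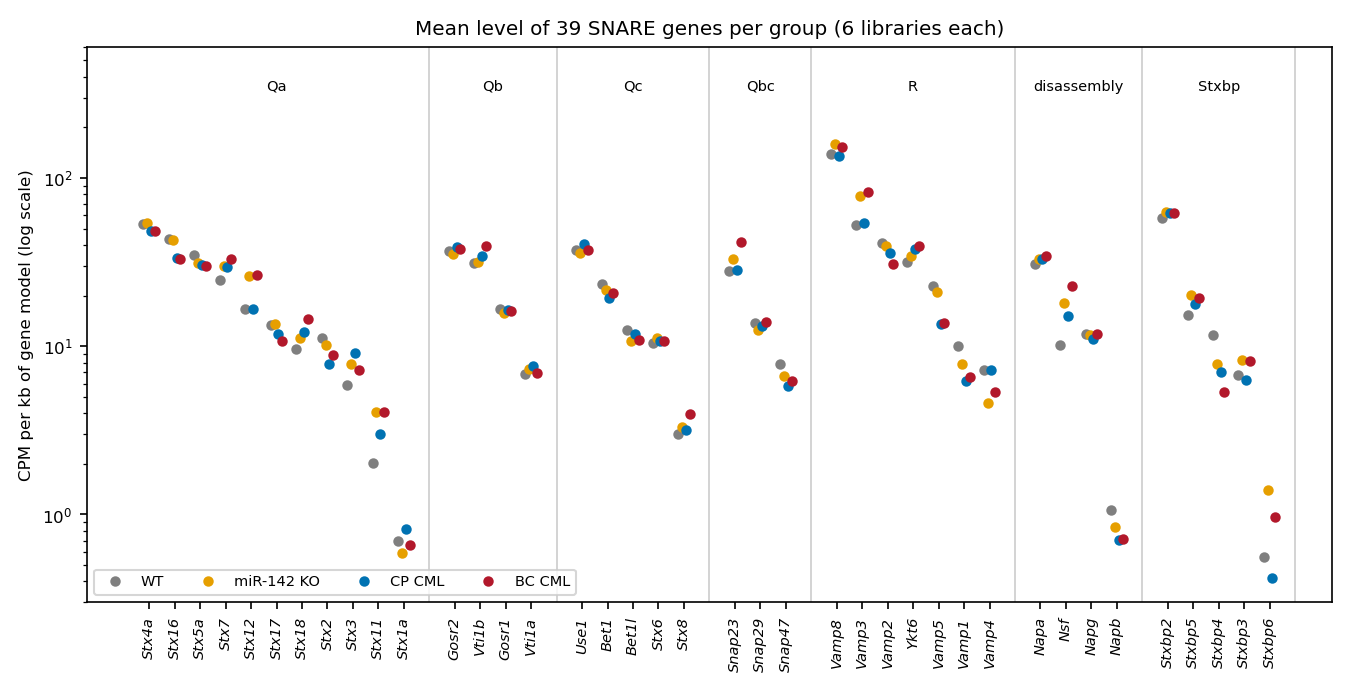
Mean level per group of 39 tested members in CPM per kb of gene length on a log axis, grouped by class, with 1 point per group of 6 libraries. Levels span from Vamp8, at a mean of 145.9 over all libraries, to Stx1a at 0.69 CPM per kb.

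Lower levels, from 10.8 to 18.1 CPM per kb, were found for Stxbp5, Vamp5, Nsf, Gosr1, Snap29, Stx17, Stx18, Napg, Bet1l and Stx6. Stx2, Stxbp4, Vamp1, Stx3, Stxbp3, Vti1a, Snap47, Vamp4 and Stx8 lay between 3.36 and 9.46 CPM per kb, and Stx11 was at 3.28. A few members were lower still. Stxbp6, Napb and Stx1a lay between 0.69 and 0.837 CPM per kb, Snap25 had 0 counts in every library, which allows up to 3 counts each, and Stx19 had 1 count in 1 library.

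Loss of miR-142 under BCR-ABL was addressed by BC CML against CP CML LSKs. At an adjusted p below 0.05, 9 of 41 members rose and 5 fell in BC CML LSKs, that is 22% and 12.2%, where 20.4% and 17.6% of all tested genes were higher and lower. The median log2 fold change was 0.06 over the members and 0.01 over all genes. Groups did not overlap for 8 members (19.5%) against 20.7% of all genes. By share the members were thus close to the background, and the changes sat in a few genes.

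Stx12, a syntaxin of recycling endosomes, ran from 43.1 over a median of 47.6 to 51.1 CPM in CP CML LSKs and from 68.7 over 76.5 to 82.9 CPM in BC CML LSKs. The groups were far apart, with every BC CML library above every CP CML library. The log2 fold change was 0.67 ± 0.05 (SE, n = 6 per group; adjusted p = 1.88e-09).

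Vamp3, the R-SNARE of recycling endosomes, had 102, 112 and 131 CPM as lowest, median and highest in CP CML LSKs and 168, 175 and 181 CPM in BC CML LSKs. These groups did not overlap either, and the log2 fold change was 0.61 ± 0.07 (SE; adjusted p = 7.83e-07). Snap23, which gives the plasma membrane its Qb and Qc helices outside neurons, had 59.8, 62.4 and 67.2 CPM in the chronic phase libraries against 78.6, 93.3 and 101 CPM in those of blast crisis. All 6 BC CML libraries lay above all CP CML libraries, with a log2 fold change of 0.55 ± 0.06 (SE; adjusted p = 2e-07).

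Nsf, the ATPase that recycles SNAREs, ran from 86.6 over 104 to 128 CPM in CP CML LSKs and from 146 over 161 to 173 CPM in BC CML LSKs, again without overlap. Its log2 fold change was 0.59 ± 0.13 (SE; adjusted p = 0.000939). Stxbp3 (Munc18-3), the partner of syntaxin 4 at the plasma membrane, ran from 25.6 over 29.5 to 30.4 CPM and from 35.2 over 36.8 to 40.4 CPM, a log2 fold change of 0.37 ± 0.06 (SE; adjusted p = 1.91e-05) with no overlap. Reads of Stxbp3 may be shared with its pseudogene Stxbp3-ps, so its value is uncertain.

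Stxbp6 (amisyn), which binds syntaxins in place of an R-SNARE, was scarce. It ran from 1.29 over 1.7 to 2.4 CPM in CP CML LSKs and from 2.13 over 4.24 to 5.85 CPM in BC CML LSKs. Of the 6 BC CML libraries, 5 lay above every CP CML library, and the log2 fold change of 1.21 ± 0.30 (SE; adjusted p = 0.00257) was the only one of the 41 above 1 in size. The other members that were higher were Stx8, a Qc-SNARE of late endosomes (0.32), Stx18 of the ER (0.25) and Vti1b of late endosomes (0.19 on the log2 scale).

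Of the members that were lower, Vamp4, an R-SNARE of the Golgi and endosomes, ran from 20.8 over 22.7 to 27.4 CPM in CP CML LSKs and from 15.5 over 17.2 to 21.2 CPM in BC CML LSKs. Only the highest BC CML library reached the range of CP CML, and the log2 fold change was -0.44 ± 0.10 (SE; adjusted p = 0.00134). Stxbp4, a syntaxin 4 binding protein, ran from 56.6 over 67.6 to 77.2 CPM and from 40 over 49.6 to 63.9 CPM, with 5 of 6 BC CML libraries below every CP CML library and a log2 fold change of -0.41 ± 0.13 (SE; adjusted p = 0.0167). Stx3 of the plasma membrane ran from 37.5 over 45.1 to 52.5 CPM and from 29.6 over 36.5 to 41.8 CPM, with overlapping groups and a log2 fold change of -0.33 ± 0.12 (SE; adjusted p = 0.0286). Its call was lost, at adjusted p up to 0.0607, without BC CML replicate 3, BC CML replicate 6 or CP CML replicate 6.

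Vti1a, the Qb-SNARE of the trans-Golgi, changed least of the called genes, from a median of 67 to 59.8 CPM, a log2 fold change of -0.15 ± 0.06 (SE; adjusted p = 0.0377). Stx11 was higher in every BC CML library than in any CP CML library, at 8.77, 9.36 and 11.3 against 5.58, 7.26 and 8.44 CPM, while its adjusted p of 0.0612 missed the threshold.

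The same question without BCR-ABL was addressed by miR-142 KO against WT LSKs. Here 14 members were higher (34.1%) and 5 lower (12.2%), where 19.9% and 16.4% of all tested genes were higher and lower. The median log2 fold change was 0.02 over the members and 0.01 over all genes, and 8 members (19.5%) did not overlap between the groups against 14.5% of all genes. The median absolute log2 fold change was 0.14 over the 41 members against 0.18 over all genes.

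Stx12 ran from 45.9 over 47.4 to 49.2 CPM in WT and from 67 over 77 to 80.5 CPM in miR-142 KO LSKs. Every miR-142 KO library was above every WT library, with a log2 fold change of 0.65 ± 0.05 (SE; adjusted p = 3.46e-09). Vamp3 ran from 92.5 over 109 to 138 CPM and from 149 over 168 to 172 CPM, again without overlap, with a log2 fold change of 0.57 ± 0.07 (SE; adjusted p = 1.73e-06).

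Nsf ran from 62.5 over 69.4 to 86.1 CPM in WT and from 103 over 115 to 201 CPM in miR-142 KO LSKs. All 6 miR-142 KO libraries were above WT, and the highest was the library that stood apart. The log2 fold change was 0.83 ± 0.13 (SE; adjusted p = 2.39e-05) with that library and 0.66 (adjusted p = 4.36e-06) without it.

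Stx11, the syntaxin of cytotoxic granule release, was low in level and ran from 3.35 over 4.47 to 6.71 CPM in WT and from 6.77 over 9.11 to 13 CPM in miR-142 KO LSKs. The groups nearly met but did not overlap, with a log2 fold change of 0.998 ± 0.185 (SE; adjusted p = 0.000183). The summed level of 7 T or NK cell markers was 48.9 to 87.3 CPM in WT and 111 to 140 CPM in miR-142 KO LSKs. Of the 5 tested markers, 4 were higher. Nkg7 carried most of the sum, with a mean of 62.5 CPM in WT and 106 CPM in miR-142 KO LSKs. Gzma had means of 0.538 and 9.12 CPM and Cd3e of 0.093 and 1.13 CPM. The part of these markers in the Stx11 difference was not tested. Stxbp6 ran from 1.77 over 2.47 to 2.86 CPM and from 2.51 over 5.52 to 11 CPM, with 5 of 6 miR-142 KO libraries above every WT library and a log2 fold change of 1.33 ± 0.29 (SE; adjusted p = 0.000954).

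Stx3 ran from 24.5 over 26.6 to 36.8 CPM in WT and from 33.2 over 37.4 to 45.5 CPM in miR-142 KO LSKs, with 3 of 6 miR-142 KO libraries above every WT library and a log2 fold change of 0.42 ± 0.12 (SE; adjusted p = 0.00693). The other members that were higher were Stxbp5 or tomosyn (0.38), Stxbp3 (0.30), Stx7 of late endosomes (0.27), Snap23 (0.25), Stx18 (0.22), Vamp8 (0.19), Stxbp2 (0.12) and Napa (0.11 on the log2 scale). For Vamp8 the library that stood apart was the highest, at 160 CPM, and without it Vamp8 and Napa were not called.

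Vamp4 was the member that fell most, from 21.3, 23.6 and 26.4 CPM in WT to 10.9, 15.3 and 17.2 CPM in miR-142 KO LSKs. The groups did not overlap, and the log2 fold change was -0.66 ± 0.10 (SE; adjusted p = 1.79e-05), or -0.57 (adjusted p = 2.35e-05) without the library that stood apart, which was the lowest. Stxbp4 ran from 74.6 over 115 to 130 CPM and from 53.3 over 75.9 to 81.7 CPM, with overlapping groups and a log2 fold change of -0.58 ± 0.13 (SE; adjusted p = 0.00117).

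Snap47 had a log2 fold change of -0.23 ± 0.08 (SE; adjusted p = 0.0257), Bet1l of the Golgi of -0.22 ± 0.08 (SE; adjusted p = 0.0264) and Stx5a, the main Golgi syntaxin, of -0.15 ± 0.06 (SE; adjusted p = 0.041). Without the library that stood apart, Bet1l was at -0.16 (adjusted p = 0.0898) and Stx5a at -0.10 (adjusted p = 0.146), and neither was called. The Stx5a call held in 12 of 32 other settings. That of Snap47 was lost, at adjusted p up to 0.0709, without miR-142 KO replicate 1 or without WT replicate 1, 4 or 6, and that of Bet1l also without miR-142 KO replicate 1 or WT replicate 1 or 4 and when only the 12 libraries compared were fitted.

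The pair of comparisons shares no library. Stx12, Vamp3, Snap23, Nsf, Stxbp3, Stxbp6 and Stx18 were higher in both, that is 7 members, or 77.8% of those higher in BC CML against CP CML and 50% of those higher in miR-142 KO against WT. Over all tested genes the like shares of the lists of higher genes were 56.6% and 58.1%. Vamp4 and Stxbp4 were lower in both, 40% of either list, against 54.5% and 58.3% of the lists of lower genes over all tested genes. The members' shares thus lay above these in 1 case and below them in the other 3.

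**Figure D2:**
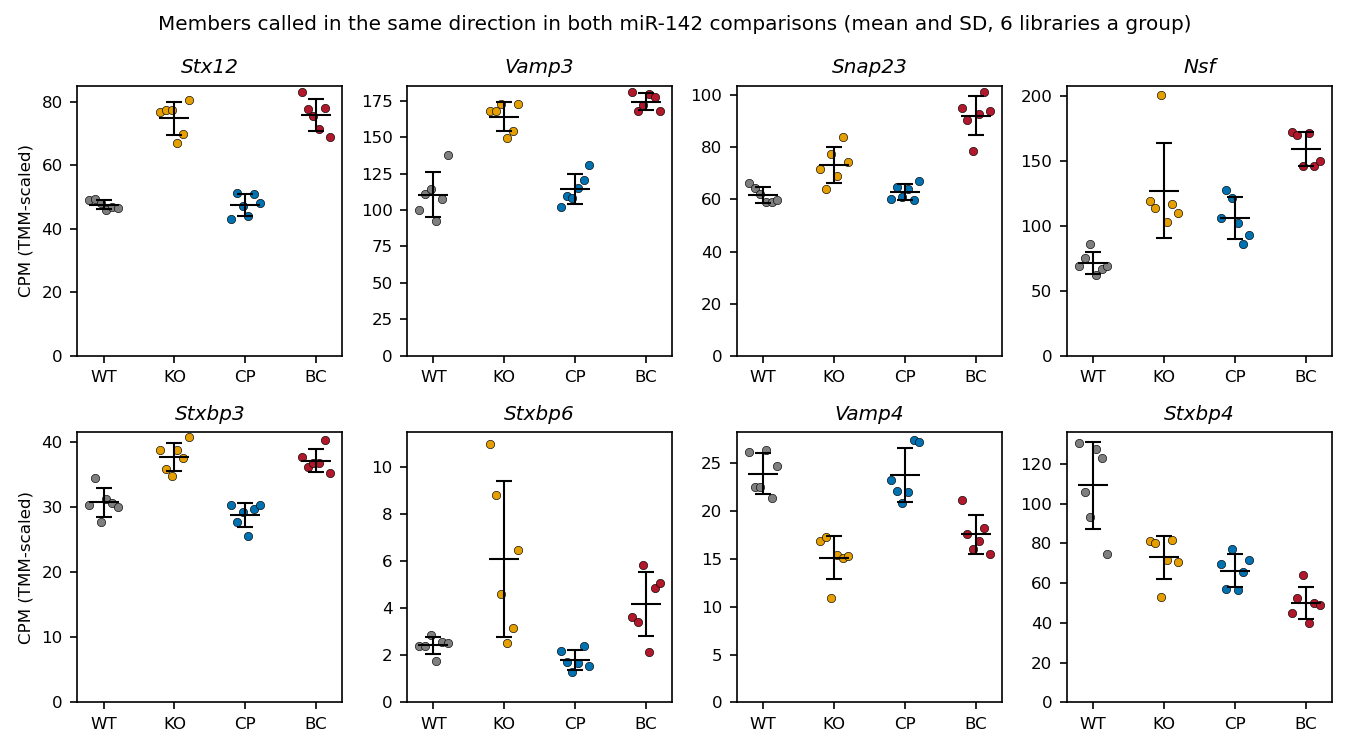
TMM-scaled CPM of 8 members in each library of WT, miR-142 KO (KO), CP CML (CP) and BC CML (BC) LSKs, with the mean and SD of 6 libraries. The medians of Stx12 were 47.4 and 47.6 CPM with miR-142 and 77 and 76.5 CPM without it, and Vamp4 was lower without it.

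Of the 8 tested members with a miR-142a-3p match, Nsf, Snap23, Stx12 and Vamp3 (50%) were higher in both comparisons and 0 were lower in either. Stx17, Stx6, Vamp1 and Vamp5 were not called in either. Among all 873 tested genes with the match, 36.7% were higher in BC CML against CP CML and 35.3% in miR-142 KO against WT, whereas 20.1% and 19.8% of genes without it were. Of the 33 members without a match, 15.2% and 30.3% were higher. Of the 6 members with a miR-142a-5p match, 0 were higher and Stx3 and Stxbp4 (33.3%) were lower in BC CML against CP CML LSKs, where 22.9% and 17.9% of all 1987 genes with that match were higher and lower. In miR-142 KO against WT LSKs Stx3 and Stx11 (33.3%) were higher and Stxbp4 (16.7%) was lower, against 19.4% and 17.9% of all genes with the match. Of all genes without the miR-142a-5p match, 21% were higher in BC CML against CP CML and 21.1% in miR-142 KO against WT LSKs. Genes with the miR-142a-3p match had longer UTRs, with a median of 2524 bases against 1166 bases over all. These shares were not matched for length.

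**Figure D3:**
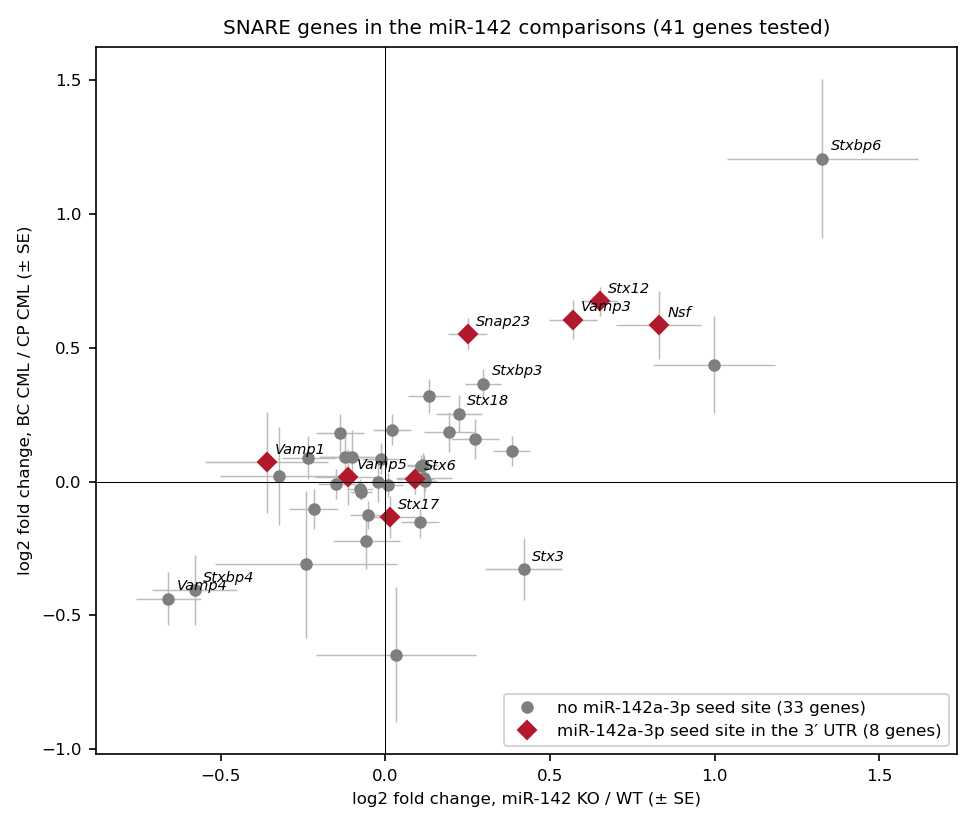
Log2 fold change in miR-142 KO against WT (x axis) and in BC CML against CP CML LSKs (y axis) with SE for 41 members, where red diamonds are the 8 members with a miR-142a-3p match in the 3′ UTR. Nsf, Snap23, Stx12 and Vamp3 lie at 0.25 to 0.83 on x and at 0.55 to 0.67 on y, and Stx3 is the member called in opposite directions.

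The difference between the effects of miR-142 loss with and without BCR-ABL passed the threshold for 2 members, where 1.91% and 2.08% of all genes were past it upward and downward. Stx3 rose with miR-142 loss in normal LSKs and fell with it in CML LSKs, a difference of -0.75 ± 0.16 on the log2 scale (SE; adjusted p = 0.0119). Snap23 was higher in both, by 0.25 and by 0.55, a difference of 0.30 ± 0.08 (SE; adjusted p = 0.0415). The Snap23 call held in 10 of 31 other settings, with adjusted p from 0.0201 to 0.098, and that of Stx3 in 31 of 31. For Stx12 the difference was 0.02 ± 0.08 and for Vamp3 0.04 ± 0.10 (SE, log2 scale).

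Within a set of plasma membrane and endosomal R-SNAREs (Vamp2, Vamp3, Vamp4, Vamp5 and Vamp8), the share of the summed level per kilobase showed how the mix shifted. Vamp1 and Vamp7 were not in the set, so the shares are of these genes only. For WT, then miR-142 KO, then CP CML, then BC CML LSKs, Vamp8 held 52.8% ± 1.3, 52.4% ± 3.29, 54.7% ± 2.77 and 53.5% ± 1.37 (SD, n = 6). Vamp3 held 20% ± 1.74 in WT and 25.9% ± 1.97 in miR-142 KO LSKs, and in the CML groups its share was 22.1% ± 1.35 with miR-142 and 29% ± 0.939 without it. The lowest BC CML share of 27.7% was above the highest CP CML share of 24.1%.

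In the SNAP family, Snap23 held 56.5% ± 1.94, 63.2% ± 2.59, 59.9% ± 2.54 and 67.2% ± 1.59 (SD, n = 6) in the same order. Snap29 held 27.7% ± 1.07, 24% ± 2.38, 27.8% ± 2.35 and 22.7% ± 1.61, and Snap47 15.8% ± 1.58, 12.8% ± 1.17, 12.3% ± 0.577 and 10% ± 1.2 (SD, n = 6). These shares are a description with no test.

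**Figure D4:**
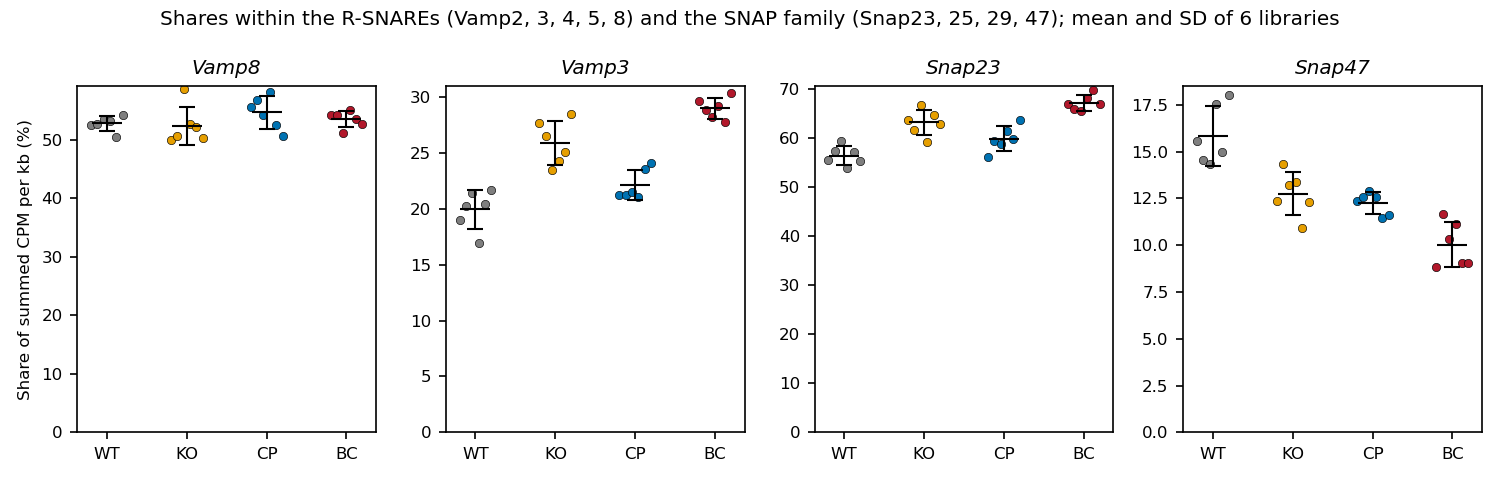
Share in percent of the summed level per kb, in each library, of Vamp8 and Vamp3 among Vamp2, Vamp3, Vamp4, Vamp5 and Vamp8, and of Snap23 and Snap47 in the SNAP family, with the mean and SD of 6 libraries. Vamp8 stayed between 49.9% and 58.7% in all 24 libraries, and Vamp3 reached 27.7% to 30.3% in BC CML LSKs.

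BCR-ABL with miR-142 present was addressed by CP CML against WT LSKs. There 9 members were higher (22%) and 11 lower (26.8%), against 22.5% and 22.9% of all tested genes. The median log2 fold change was -0.01 over the members and -0.02 over all genes.

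Stx3 ran from 24.5 over 26.6 to 36.8 CPM in WT and from 37.5 over 45.1 to 52.5 CPM in CP CML LSKs, without overlap, with a log2 fold change of 0.64 ± 0.12 (SE; adjusted p = 0.000145). Nsf was higher by 0.57 ± 0.13 (SE; adjusted p = 0.00109) and Stx11 by 0.57 ± 0.19 (SE; adjusted p = 0.0153). Stx18, a SNARE of the ER, ran from 21.6 over 24.1 to 25.5 CPM and from 26 over 30.7 to 34.3 CPM, without overlap, with a log2 fold change of 0.35 ± 0.07 (SE; adjusted p = 0.000332). Stx7, Ykt6, Stxbp5, Vti1a and Napa were higher by 0.11 to 0.27.

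Vamp5, an R-SNARE best known from muscle, fell most. It ran from 30.4 over 38.4 to 45 CPM in WT and from 19.8 over 22.4 to 25.3 CPM in CP CML LSKs, without overlap, a log2 fold change of -0.74 ± 0.10 (SE; adjusted p = 8.53e-06). Stxbp4 was lower by a log2 fold change of -0.72 ± 0.13 (SE; adjusted p = 0.000132), with 5 of 6 CP CML libraries below every WT library.

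Vamp1 was lower by -0.69 ± 0.19 (SE, log2 scale; adjusted p = 0.00501), with WT libraries spread from 32.8 to 71.8 CPM. Napb, Stx2, Snap47, Stx16, Bet1, Stx5a and Stx4a had log2 fold changes from -0.59 to -0.14. Stx12 was at -0.01 ± 0.05, Vamp3 at 0.05 ± 0.07 and Vamp4 at -0.01 ± 0.10 (SE, log2 scale), none past the threshold.

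BCR-ABL with miR-142 absent was addressed by BC CML against miR-142 KO LSKs. Here 7 members were higher (17.1%) and 9 lower (22%), against 20.3% and 19.3% of all tested genes, with a median log2 fold change of -0.03 over the members and -0.02 over all genes.

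Stx18 ran from 26.9 over 27.9 to 29.8 CPM in miR-142 KO and from 31.2 over 38.4 to 39.3 CPM in BC CML LSKs, without overlap, with a log2 fold change of 0.38 ± 0.07 (SE; adjusted p = 0.000238). Snap23 was higher by 0.33 ± 0.06 (SE; adjusted p = 0.000232), with 5 of 6 BC CML libraries above every miR-142 KO library, and Vti1b by 0.31 ± 0.06 (SE; adjusted p = 3e-04). Nsf was higher by 0.33 ± 0.13 (SE; adjusted p = 0.0453), a call kept in 14 of 32 other settings, and by 0.49 (adjusted p = 0.000123) without the library that stood apart.

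Vamp5 was lower by -0.61 ± 0.10 (SE; adjusted p = 0.000117), and Stxbp4 by -0.55 ± 0.13 (SE; adjusted p = 0.00231), each with 5 of 6 BC CML libraries below every miR-142 KO library. Stx8, Ykt6 and Gosr2 were higher by 0.10 to 0.27, and Stx16, Vamp2, Stx17, Stx2 and Stx4a had log2 fold changes from -0.36 to -0.16.

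The BCR-ABL comparisons share no library either. Nsf, Stx18 and Ykt6 were higher in both, 33.3% of those higher with miR-142 present and 42.9% of those higher with it absent, where the like shares over all tested genes were 62.8% and 69.6%. Of the members lower in the first, 54.5% were lower in the second as well, that is 66.7% of the second list, among them Stx16, Stx2, Stx4a, Stxbp4 and Vamp5, and 0 members were called in opposite directions. The like shares of the lists of lower genes over all tested genes were 50.1% and 59.4%, so those of the members lay near or, upward, below the background.

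**Figure D5:**
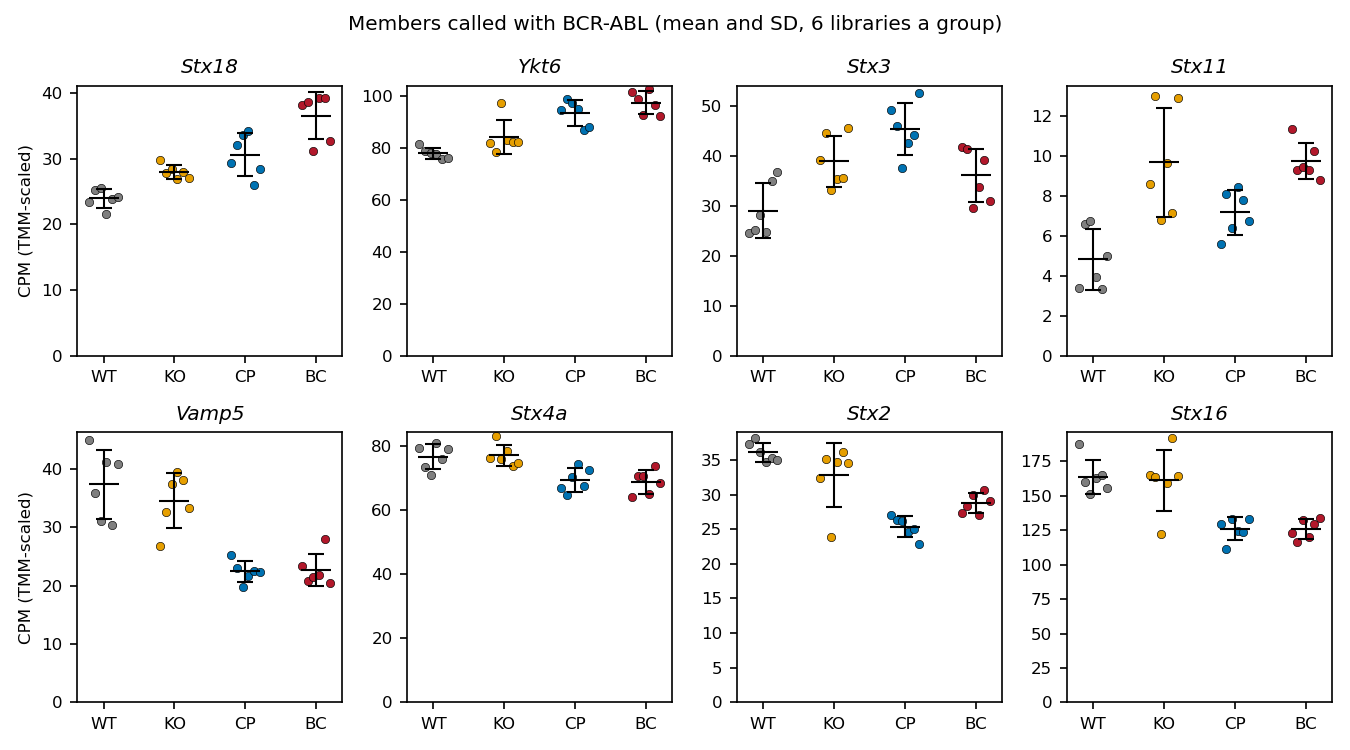
TMM-scaled CPM of 8 members in each library of WT, miR-142 KO (KO), CP CML (CP) and BC CML (BC) LSKs, with the mean and SD of 6 libraries. Vamp5 was lower in both CML groups, at 19.8 to 28 CPM, than in most libraries of the normal groups, and Stx18 was highest in BC CML LSKs.

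Gosr1, Napg, Snap29, Stx1a, Stx6 and Use1 were not called in any of the 4 pairs of groups. Mir142 lies on chromosome 11, as do 8 members, of which Stxbp4 is nearest at 2.72 Mb (chr11:90476493-90638108), followed by Gosr1 at 11 Mb, Gosr2 at 15.9 Mb and Nsf at 16.1 Mb. Of these 8, 2 were higher and 1 lower (25% and 12.5%) in BC CML against CP CML LSKs, where 20.4% and 17.6% of all tested genes were. In miR-142 KO against WT LSKs 1 was higher and 2 lower (12.5% and 25%), against 19.9% and 16.4% of all tested genes. Whether DNA linked to the deleted allele plays a part in Stxbp4 or Nsf was not tested. The deletion and any DNA linked to it go together in both miR-142 comparisons, so these libraries cannot tell them apart.

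Other genes of membrane fusion and of related families, such as the extended synaptotagmins (Esyt), were read for context. This was a list of 56 outside the symbol rule, of which 34 were tested. In BC CML against CP CML LSKs 9 were higher and 8 lower (26.5% and 23.5%, against 20.4% and 17.6% of all tested genes), and in miR-142 KO against WT LSKs 8 and 7 (23.5% and 20.6%, against 19.9% and 16.4%). Unc13b, a priming factor, had a mean of 11.1 CPM in BC CML against 4.22 CPM in CP CML LSKs, a log2 fold change of 1.39 ± 0.17 (SE; adjusted p = 8.01e-07), and was the only gene of the list past the threshold for the difference of the miR-142 effects, at 0.94 ± 0.23 (SE; adjusted p = 0.0244). Vps33a, a Sec1/Munc18 protein of lysosomes, was higher in BC CML against CP CML LSKs (0.26) and in miR-142 KO against WT LSKs (0.24), as was Vps45 in the first (0.32) and Esyt1 (0.37) and Sec22c (0.21) in the second.

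The synaptotagmin-like genes Sytl5 and Sytl4 and the priming factor Cadps2 were lower with miR-142 loss in both settings. Sytl5 had a log2 fold change of -3.44 in BC CML against CP CML and -3.04 in miR-142 KO against WT LSKs, Cadps2 of -1.32 and -1.17, and Sytl4 of -0.92 and -1.003. In CP CML against WT LSKs 3 of the 34 were higher and 10 lower (8.82% and 29.4%, against 22.5% and 22.9% of all tested genes), led by Esyt1 (0.36), Sytl3 (3.55, from a mean of 0.871 to 10.2 CPM) and Vps33a (0.19) upward and by Snapin (-0.37), Sytl4 (-0.77) and Unc13d (-0.27) downward. In BC CML against miR-142 KO LSKs 6 were higher and 8 lower (17.6% and 23.5%, against 20.3% and 19.3%), with Unc13b (1.06), Vps33a (0.21) and Sec22b (0.19) upward and Unc13d (-0.42), Sytl4 (-0.69) and Cadps2 (-0.92) downward. Unc13d (Munc13-4) primes granules for release in blood cells.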

How the data were processed

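LSKs from 24 libraries, 6 per group, were analysed. The authors trimmed reads with Trimmomatic and FASTP, mapped them to mm10 with STAR 2.6.0 and counted them per gene with HTSeq-count 0.11.1, as deposited raw counts without normalization, with a further column of other values, the gene length in kilobases. The annotation and the strand setting were not given in the sources used here, so reads of overlapping antisense genes cannot be told apart.

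Counts were tested in edgeR 4.0.16 under R 4.3.3 (filterByExpr, TMM, quasi-likelihood test, all 24 libraries in 1 fit, Benjamini-Hochberg over 13520 genes, threshold 0.05). The study's methods used the likelihood ratio test, here an alternative, with DESeq2 1.42.0, other scalings, other filters, sex as a covariate, only the 12 libraries compared, a fold limit and each library left out. The steps were tested on simulated data.

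Members were chosen by symbol, and members and lists were chosen with earlier results of these data known. Log2 fold changes, with group values for some, were given for chosen members past the threshold. In each miR-142 comparison these were up to 6 members that rose and 6 that fell most. In the BCR-ABL comparisons they were up to 4 each way. Each member past the threshold for the difference was included. Up to 3 other genes of fusion and related families were named each way by smallest p. Values of 2 members are not reported here. A count of 0 allows up to 3 counts, for counting error only. Sequences were read in Python 3.11.15 with pandas 2.3.3.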

Additional observations from a re-analysis of the deposited data

Results flagged for a closer look

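Within each group of 6 libraries the highest and lowest value of each tested member were compared with the nearest other value, by Dixon's ratio at its 95% limit, over 156 groups. Chance alone marks about 1 in 20 groups, and 11 were marked. Of these, 6 came from the library miR-142 KO 3: Nsf at 201 CPM, Vamp8 at 160, Ykt6 at 97.5 and Vti1b at 47.2 were the highest of their group, and Stx2 at 23.8 and Vamp4 at 10.9 CPM the lowest. The same library stood apart along the first principal component.

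The other 5 were Napg in miR-142 KO 6 (46.3 CPM, highest), Vamp8 in WT 6 (128, highest), Bet1l in BC CML 5 (18.9, highest), Vti1a in BC CML 2 (66.3, highest) and Vamp1 in BC CML 2 (24.5 CPM, lowest).

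The effect of miR-142 loss differed with BCR-ABL, by the test of the difference itself, for Snap23 (0.303 on the log2 scale) and for Stx3 (-0.747). The Snap23 call held in only 10 of 31 other settings, and that of Stx3 in 31 of 31.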

How the results depend on the processing

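A log2 change of at least 1 in size was also required as an alternative. In that setting 1 member was called in BC CML against CP CML and 1 in miR-142 KO against WT. In CP CML against WT, in BC CML against miR-142 KO and for the difference, 0 were called. Nearly all calls of members were thus of modest size. Over all tested genes, 8.35%, 9.03%, 7.64%, 7.05% and 5.16% had a change of that size in the same order, called or not. For the difference, DESeq2 called 4 members and the fit with no filter on low counts 1, where 2 were called. Simulated data were drawn once for BC CML against CP CML, with far fewer changed genes than were called here. On them DESeq2 and the likelihood ratio test made a larger share of false calls than the threshold allows. The quasi-likelihood test did not. That share depends on how many genes change, so it cannot rank the tests for these data. The difference was not simulated. Leaving out each library gave 12 to 17 members in BC CML against CP CML and 14 to 21 in miR-142 KO against WT. It gave 18 to 25 in CP CML against WT and 12 to 16 in BC CML against miR-142 KO. For the difference it gave 1 to 4. Over all tested genes the like counts were 4404 to 5608, 4246 to 5062, 5348 to 6542, 4542 to 6471 and 375 to 787. Other alternatives kept the counts of members within 1.5 times. No named member reversed direction where it was called, and no scaling moved the median of all genes by over 0.1. No paired analysis was possible because the labels give no replicate numbers shared between groups. Stxbp6 and Stx1a, both of low counts, had wider errors than the other members named, and a miss does not show that levels were alike.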
